A study of Homo sapiens with 6 samples.

Results

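Interferon-stimulated genes are genes whose transcription rises when a cell detects interferon. A panel of 36 of them, chosen by gene symbol to cover sensors, transcription factors and effectors, was followed in RKO cells after knockdown of TRMT6, out of 20289 genes in the deposited table. All 36 symbols matched a single Ensembl gene each, and 29 reached the level used for testing, a mean of at least 1 FPKM (fragments per kilobase of transcript, scaled to the mapped fragments of the library) over the 6 libraries. RKO is an established human colorectal cancer cell line. The shTRMT6 group (3 libraries) is labelled as a TRMT6 knockdown and carries a short hairpin RNA named after TRMT6. TRMT6 and the catalytic TRMT61A form the methyltransferase that makes 1-methyladenosine in tRNAs. The shControl group (3 libraries) is labelled WT and carries a control hairpin. The hairpin sequences, the selection or cloning of the cells, the time after transduction and whether interferon or another agent was added are not given in the sources used here. For these genes the question was whether their mRNAs differed between the groups.

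As background, type I and type III interferons bind receptors on the cell surface that activate the kinases JAK1 and TYK2. These phosphorylate STAT proteins such as STAT2, which joins IRF9 in the complex ISGF3, and ISGF3 binds a sequence called the interferon-stimulated response element (ISRE) near its target genes. Interferon gamma acts through a different receptor and mainly through another element, the gamma-activated site (GAS). Cells make interferon after foreign or misplaced nucleic acid is detected by cytosolic sensors such as IFIH1 and RIG-I, or by cGAS and STING. Many tumour lines keep some interferon-stimulated genes on without added interferon.

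The targeted gene was low in the knockdown libraries: TRMT6 read 1.58, 1.73 and 1.09 FPKM in shTRMT6, against 14.43, 17.96 and 16.85 FPKM in shControl. Depth, estimated roughly from the spacing of the lowest FPKM values, was 18.6 to 21.0 M (mega) fragments in the shTRMT6 libraries and 20.6 to 28.3 M in the shControl libraries. Relative to the mean of the 6 libraries, values of shControl replicate 1 rose with transcript GC content, by 0.22 in log2 per 10 points of GC. The slope was -0.0046 and 0.034 in shControl replicates 2 and 3, and -0.0715, -0.153 and -0.0248 in shTRMT6 replicates 1, 2 and 3. All shTRMT6 slopes lay below all shControl slopes, narrowly so between shControl replicate 2 and shTRMT6 replicate 3. The slopes are relative to the mean of the 6 libraries, so the high slope of shControl replicate 1 lowers the others. The GC trend may therefore differ between the groups compared, which was not tested. Of 7 epithelial markers, 4 reached the level for testing, led by KRT18 at 193, 187 and 179 FPKM in shTRMT6 and 136, 115 and 105 FPKM in shControl, and KRT19, CDH1 and VIL1 were listed at 0 in every library. Of 8 haematopoietic markers, CD68 alone passed 1 FPKM, and the 8 summed to 739 to 997 FPKM in shTRMT6 and 677 to 811 FPKM in shControl, nearly all of it CD68. The leucocyte antigen PTPRC was listed at 0 in the 3 shTRMT6 libraries and at 0.02 FPKM or less in shControl. CD14, also of this list and under the level for testing, went the other way without overlap. It read 0.22, 0.36 and 0.28 FPKM in shTRMT6 and 0.03, 0.13 and 0.10 FPKM in shControl. PTPRC and CD14 were chosen after their values were seen. The 6 fibroblast markers, led by COL1A1, summed to 0.07 to 0.13 FPKM in shTRMT6 and 0.1 to 1.44 FPKM in shControl. The 1.44 FPKM was that of shControl replicate 3 alone: COL1A1 read 0.13, 0.05 and 0.65 FPKM in shControl replicates 1, 2 and 3. The 4 endothelial markers, led by PECAM1, summed to 0.01 to 0.09 FPKM in shTRMT6 and 0.01 to 0.17 FPKM in shControl. In bulk libraries, fewer cells with a given mRNA and less of that mRNA per cell cannot be told apart.

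The panel moved in both directions and by modest amounts. Of the 29 tested members, 10 were higher in shTRMT6, 3 were lower and 16 did not pass (limma on log2(FPKM + 1), Benjamini-Hochberg adjusted p under 0.05 over all 10592 genes tested). Of all genes tested, 35.4% passed, 19.3% higher and 16.1% lower; of the tested members, 44.8% passed, 34.5% higher and 10.3% lower. The members higher in shTRMT6 were IFI16, IFI27, HERC6, ISG15, IFITM3, ISG20, MX1, EIF2AK2, PARP9 and BST2. Those lower in shTRMT6 were IFITM1, STAT2 and OAS3. The median log2 fold change was 0.19 over the 29 members and 0.024 over all genes tested. The largest rise was that of IFI16, at 1.14, and the largest fall that of IFITM1, at -1.22. The groups did not overlap for 13 members that were higher and 4 that were lower, or 58.6% of the tested members, against 48.3% of all genes tested (26.2% higher and 22.1% lower). Whether these shares differ from those of other genes was not tested.

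**Figure D1:**
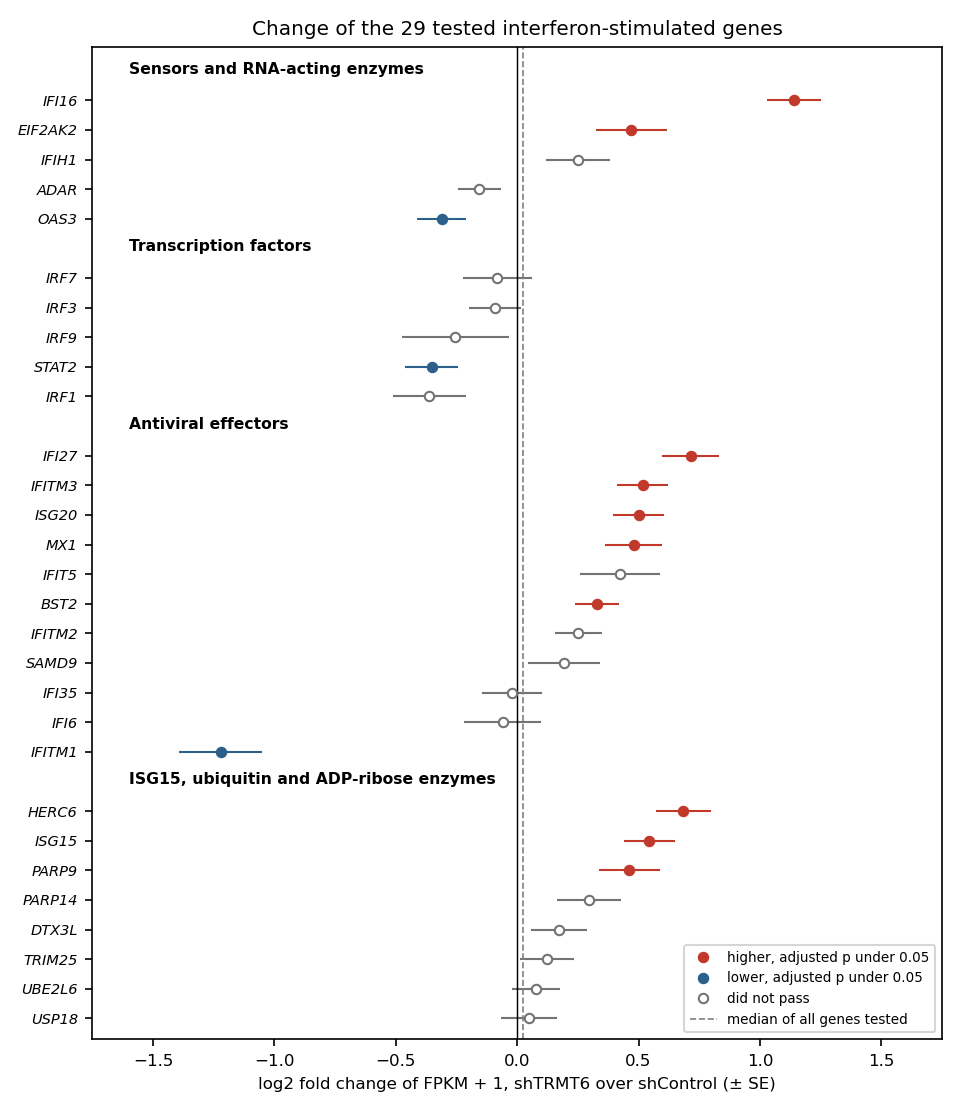
Log2 fold change of FPKM + 1 (shTRMT6 over shControl) with its standard error for the 29 tested members, grouped by role. Filled points passed an adjusted p of 0.05, open points did not, and the dashed line is the median of all genes tested (0.024). The 10 rises lie among sensors, effectors and the ISG15 group. All 5 transcription factors lie below 0, and of these STAT2 alone passed. IRF3 and IRF7 turn above 0 with the GC correction or without shControl replicate 1.

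Levels in RKO cells spanned a wide range. By mean over the 6 libraries, 6 members lay at 50 FPKM or more, 8 between 10 and 50, 15 between 1 and 10, and 7 under 1 FPKM. IFITM2, BST2 and IFITM3 together made up 65.6% of the panel's summed level. That sum was 1684, 1658 and 1657 FPKM in shTRMT6 replicates 1, 2 and 3, against 1385, 1275 and 1278 FPKM in shControl replicates 1, 2 and 3, so every knockdown library lay above every control library. Within libraries, 22, 21 and 17 of the 29 tested members stood above their own mean over the 6 libraries in shTRMT6 replicates 1, 2 and 3, against 12, 12 and 9 in shControl. The third knockdown library was the closest to the controls by this count. Each member's mean covers both groups, so the counts of the groups are not independent. The same count over all genes is not given.

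**Figure D2:**
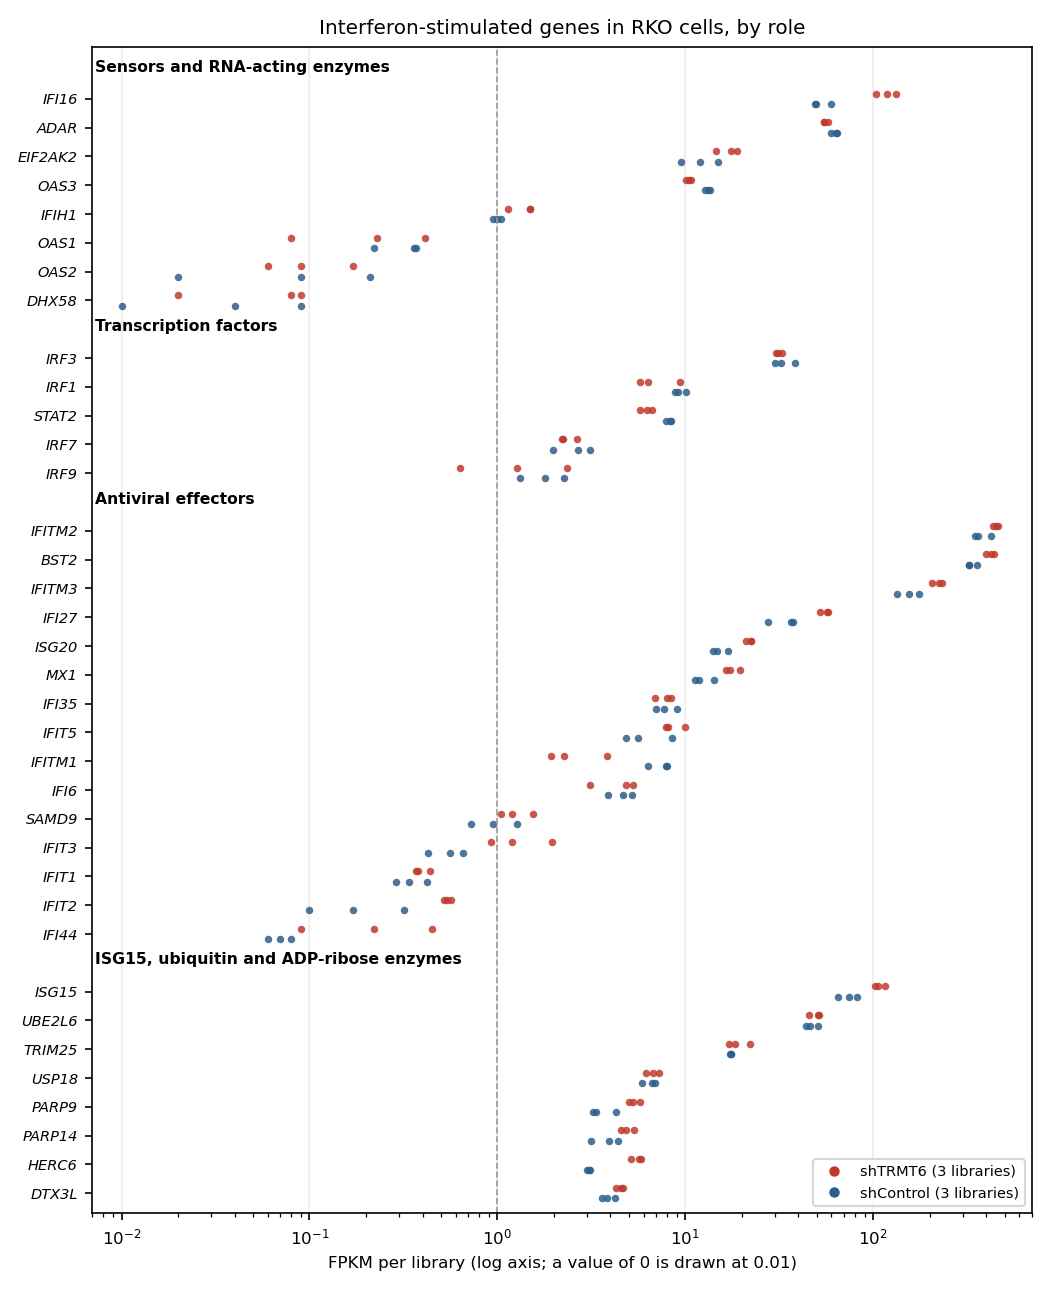
FPKM of the 36 members in each library on a log axis, shTRMT6 above shControl in each row, grouped by role and ordered by mean. The dashed line marks the mean of 1 FPKM needed for testing. IFITM2, BST2 and IFITM3 lie above 100 FPKM in all 6 libraries, and the 7 members under the line include OAS1, OAS2, IFIT1 and IFIT2.

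The promoters of the panel were searched for the sequence that ISGF3 and interferon regulatory factors are known to bind. In RefSeq windows from 250 bases before to 50 bases after each annotated start (GRCh38.p14), 29 of the 36 members had an entry. The ISRE core, searched on either strand as GAAA, then 2 bases of any kind, then GAAA, stood in a window of 19 of these 29 members (65.5%), against 4.38% of 27305 genes with an entry. The GAS motif TTCNNNGAA, which reads the same on both strands, stood in 9 of the 29 (31.0%), against 9.38% of all genes. A match here is a description of the letters, and no binding was measured. Of the 16 tested members with an ISRE match, 8 were higher, 2 were lower and 6 did not pass, with a median log2 fold change of 0.38. Of the 9 tested members with an entry and no match, 2 were higher (IFI16 and HERC6), 1 was lower (STAT2) and 6 did not pass, with a median of -0.021. Of all genes tested, 19.3% were higher and 16.1% lower. Members without a match include the transcription factors STAT2, IRF1 and IRF9. PARP9 and DTX3L are both counted for the same match, and IRF3, IRF7, IFITM2 and USP18 were tested but had no entry. The difference between members with and without a match was not tested. The 30-base stretches below are shown because they carry the element in members that rose and in a pair that fell, with the ISRE core in capitals and each read 5′ to 3′ on the strand that shows the core in that form.
ISG15 (chr1:1013380-1013409, plus strand): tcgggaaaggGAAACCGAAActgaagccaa
BST2 (chr19:17405741-17405770, minus strand): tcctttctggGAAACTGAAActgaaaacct
IFI27 (chr14:94110618-94110647, minus strand): cattttccagGAAACCGAAActgcagacat
MX1 (chr21:41420559-41420588, plus strand): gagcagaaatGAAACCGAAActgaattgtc
ISG20 (chr15:88638937-88638966, plus strand): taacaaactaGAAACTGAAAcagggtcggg
EIF2AK2 (chr2:37156967-37156996, minus strand): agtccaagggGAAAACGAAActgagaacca
IFITM3 (chr11:320876-320905, minus strand): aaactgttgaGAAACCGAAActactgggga
IFITM1 (chr11:314024-314053, plus strand): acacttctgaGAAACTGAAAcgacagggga
OAS3 (chr12:112938452-112938481, plus strand): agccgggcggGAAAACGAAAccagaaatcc
The IFITM3 and IFITM1 stretches come from neighbouring genes that moved in opposite directions, as described below. BST2 and ISG15 each hold a second match that overlaps the printed one. IFI27, IFITM3, IFITM1 and OAS3 each hold a further match apart from the printed core, and MX1 holds one in another of its windows.

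Among the sensors and RNA-acting enzymes, IFI16 rose most. IFI16 (ENSG00000163565; chromosome 1, bases 158999968 to 159055155 on the plus strand, GENCODE release 29 on GRCh38), a DNA-binding protein of the PYHIN family that acts in the nucleus and in DNA sensing, read 119, 132 and 104 FPKM in shTRMT6 and 49.7, 59.9 and 49.2 FPKM in shControl. Every knockdown library lay well above every control library. The mean was 2.23-fold higher in shTRMT6 (log2 fold change 1.14, SE 0.11, limma adjusted p = 2.7e-05). EIF2AK2, which encodes PKR, the kinase that halts translation when it binds double-stranded RNA, read 17.5, 19.0 and 14.6 FPKM in shTRMT6 and 9.47, 14.9 and 12.0 FPKM in shControl. Its groups overlapped, since the third knockdown library lay below the second control library. It was 1.40-fold higher (log2 fold change 0.47, SE 0.15, limma adjusted p = 0.025). That call was lost when no low genes were filtered out (adjusted p = 0.101), with the correction for transcript GC content (log2 fold change 0.22, adjusted p = 0.078), and when shControl replicate 1 (0.083) or shTRMT6 replicate 1 (0.078) or 2 (0.093) was left out; over the 17 alternatives the adjusted p ran from 0.00065 to 0.101.

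OAS3, which makes the 2′-5′ oligoadenylates that activate RNase L, moved the other way. It read 10.5, 10.03 and 10.7 FPKM in shTRMT6 and 13.6, 13.2 and 12.7 FPKM in shControl, and the groups did not overlap. OAS3 was 1.26-fold lower (log2 fold change -0.31, SE 0.10, limma adjusted p = 0.030). It no longer passed when shControl replicate 2 (adjusted p = 0.075) or 3 (0.068) or shTRMT6 replicate 1 (0.094) or 2 (0.113) was left out. Its neighbours in the cluster on chromosome 12 were barely present: OAS1 read 0.41, 0.08 and 0.23 FPKM in shTRMT6 and 0.37, 0.36 and 0.22 FPKM in shControl, and OAS2 read 0.21 FPKM or less in every library. IFIH1 (MDA5), a sensor of long double-stranded RNA, read 1.5, 1.14 and 1.49 FPKM in shTRMT6 and 0.95, 1.04 and 0.99 FPKM in shControl. Its groups did not overlap, but the difference did not pass (log2 fold change 0.25, SE 0.13, limma adjusted p = 0.153; 0.095 in log2 with the GC correction). ADAR, which edits adenosine to inosine in double-stranded RNA, read 57.4, 54.8 and 55.0 FPKM in shTRMT6 and 59.3, 64.0 and 63.5 FPKM in shControl, a difference that did not pass (log2 fold change -0.16, limma adjusted p = 0.190) except with the replicate block and the GC correction together (adjusted p = 0.029). DHX58, a regulator of IFIH1 and RIG-I, read 0.09 FPKM or less in every library.

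Of the 5 transcription factors, none passed as higher and 1 passed as lower (20.0%), against 19.3% higher and 16.1% lower of all genes tested. STAT2, the ISGF3 subunit that carries the transactivation domain, read 6.22, 5.77 and 6.64 FPKM in shTRMT6 and 8.32, 7.89 and 8.38 FPKM in shControl. The groups were apart, and STAT2 was 1.32-fold lower in shTRMT6 (log2 fold change -0.35, SE 0.11, limma adjusted p = 0.024). Leaving out shControl replicate 3 (adjusted p = 0.084) or shTRMT6 replicate 1 (0.079) or 2 (0.106) removed the call. IRF9, its DNA-binding partner, spread widely within groups, at 1.27, 2.36 and 0.63 FPKM in shTRMT6 and 1.80, 2.25 and 1.32 FPKM in shControl. It did not pass (log2 fold change -0.25, SE 0.22, limma adjusted p = 0.387; -0.16 in log2 with the GC correction). Every 75-base window of its longest transcript also lies in an overlapping annotated gene, so its fragments cannot be assigned to it alone.

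IRF1, an early target of interferon gamma, read 9.41, 6.31 and 5.77 FPKM in shTRMT6 and 10.1, 9.11 and 8.77 FPKM in shControl. The first knockdown library lay among the controls and the other 2 lay below them. The difference did not pass (log2 fold change -0.36, SE 0.15, limma adjusted p = 0.075), and it passed with the replicate number as a block (adjusted p = 0.011), with the block and the GC correction (0.027), and without shTRMT6 replicate 1 (0.013). IRF3, which switches on interferon genes after sensing, averaged 31.4 ± 1.23 FPKM in shTRMT6 and 33.7 ± 4.19 FPKM in shControl (SD, n = 3 each; limma adjusted p = 0.539). IRF7, which amplifies interferon production, averaged 2.36 ± 0.240 FPKM in shTRMT6 and 2.59 ± 0.576 FPKM in shControl (SD, n = 3 each; limma adjusted p = 0.684). For both, the log2 fold change was between -0.1 and 0 and turned positive with the GC correction or without shControl replicate 1.

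Antiviral effectors held 5 of the 10 rises, in 11 tested of 15. Of those tested, 45.45% were higher and 9.09% lower, against 19.3% and 16.1% of all genes. IFI27 (ENSG00000165949; chromosome 14, bases 94104836 to 94116698, plus strand), a small membrane protein, read 57.3, 52.4 and 56.8 FPKM in shTRMT6 and 37.2, 36.3 and 27.5 FPKM in shControl. All knockdown libraries lay above the control range, and the mean was 1.65-fold higher (log2 fold change 0.72, SE 0.12, limma adjusted p = 0.00070). ISG20, a 3′ to 5′ exonuclease of single-stranded RNA, read 21.0, 22.2 and 22.4 FPKM in shTRMT6 and 16.8, 14.1 and 14.7 FPKM in shControl. It was 1.44-fold higher (log2 fold change 0.50, SE 0.10, limma adjusted p = 0.0029). MX1, a dynamin-like GTPase that restricts influenza and other viruses, read 17.2, 19.7 and 16.4 FPKM in shTRMT6 and 14.3, 11.3 and 11.9 FPKM in shControl. The lowest knockdown library lay above the highest control, and the mean was 1.42-fold higher (log2 fold change 0.48, SE 0.12, limma adjusted p = 0.0072). BST2 (tetherin), which holds budding virus particles at the cell surface, was among the most abundant members, at 397, 425 and 439 FPKM in shTRMT6 and 324, 323 and 357 FPKM in shControl. It was 1.26-fold higher with groups apart (log2 fold change 0.33, SE 0.089, limma adjusted p = 0.012), a call that was lost when replicate 2 of shControl (adjusted p = 0.057) or of shTRMT6 (0.055) was left out.

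The IFITM genes, small membrane proteins that block virus entry, split. They lie next to each other on chromosome 11: IFITM1 (ENSG00000185885) at bases 313506 to 315272 and IFITM2 (ENSG00000185201) at 307631 to 315272 on the plus strand, and IFITM3 (ENSG00000142089) at 319669 to 327537 on the minus strand. IFITM1, which acts mainly at the cell surface, read 3.85, 2.25 and 1.93 FPKM in shTRMT6 and 7.98, 7.90 and 6.33 FPKM in shControl. Every knockdown library lay below every control, and the mean was 2.77-fold lower (log2 fold change -1.22, SE 0.17, limma adjusted p = 0.00028). IFITM3, which acts in endosomes and restricts influenza virus, read 232, 206 and 224 FPKM in shTRMT6 and 175, 134 and 156 FPKM in shControl. It was 1.43-fold higher with no overlap (log2 fold change 0.52, SE 0.11, limma adjusted p = 0.0027). IFITM2, also endosomal, read 462, 434 and 448 FPKM in shTRMT6 and 424, 361 and 347 FPKM in shControl. Its groups did not overlap, but the difference did not pass (log2 fold change 0.25, SE 0.096, limma adjusted p = 0.057). It passed with the replicate block (adjusted p = 0.0059), with the GC correction (0.0048), with both (0.00038) and without shControl replicate 1 (0.0071). The 3 genes share sequence: 39.7% of the 75-base windows of the IFITM1 transcript, 10.8% of those of IFITM3 and 7.21% of those of IFITM2 occur in another annotated gene, and the annotated IFITM2 gene spans IFITM1. The values of IFITM1, far lower than those of its neighbours, are therefore uncertain, and the part of shared fragments in its fall was not tested. The fall kept its direction and its side of the threshold in all 17 alternatives (adjusted p from 1.8e-09 to 0.012).

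**Figure D3:**
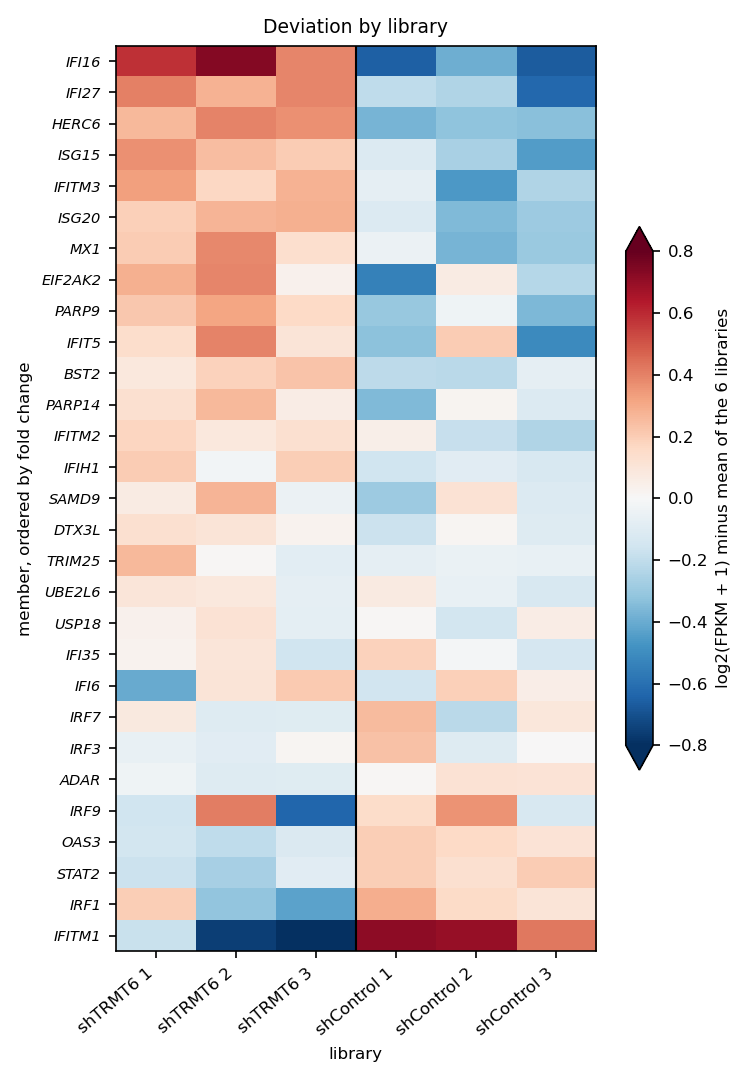
Deviation of log2(FPKM + 1) from the mean of the 6 libraries for the 29 tested members (rows, ordered by fold change) in each library (columns, shTRMT6 left of shControl). Red is above and blue below the member's own mean. IFI16, IFI27 and HERC6 at the top are red in all 3 knockdown libraries, IFITM1 at the bottom is blue in all 3, and IRF9 differs between libraries of the same group.

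The IFIT genes, tetratricopeptide-repeat proteins that bind foreign RNA ends, lie in a cluster on chromosome 10 and were low in RKO cells. IFIT5, the most abundant of them, read 8.12, 9.91 and 7.89 FPKM in shTRMT6 and 5.61, 8.52 and 4.81 FPKM in shControl. Its groups overlapped through shControl replicate 2, and it did not pass (log2 fold change 0.42, SE 0.16, limma adjusted p = 0.060). It passed with the replicate block (adjusted p = 0.0036) and without shControl replicate 2 (0.0039). The log2 fold change was 0.15 with the GC correction (adjusted p = 0.414, or 0.265 with the block as well) and 0.28 without shControl replicate 3 (0.227). IFIT2 and IFIT3 stayed under the level for testing. IFIT2 read 0.57, 0.54 and 0.52 FPKM in shTRMT6 and 0.10, 0.32 and 0.17 FPKM in shControl, by the depth estimate about 37 to 44 fragments against 7.6 to 32. IFIT3 read 1.19, 1.95 and 0.93 FPKM in shTRMT6 and 0.56, 0.43 and 0.66 FPKM in shControl, about 44 to 91 fragments against 29 to 47. For both, all knockdown libraries lay above all controls, and without a filter on low values both passed (IFIT2 log2 fold change 0.37, SE 0.067, limma adjusted p = 0.014; IFIT3 0.58, SE 0.15, adjusted p = 0.042), where 19.6% of 15015 genes did. IFIT1 read 0.29 to 0.44 FPKM with overlapping groups, and 7.77% of the windows of IFIT2 occur in an overlapping annotated gene. The cluster held no member that passed the test as filtered.

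Of the other effectors none passed. IFI44, a cytoplasmic protein of little-known function, read 0.09, 0.22 and 0.45 FPKM in shTRMT6 and 0.07, 0.08 and 0.06 FPKM in shControl, groups that did not overlap at a level of about 3.2 to 14 fragments against 2.4 to 3.6. It stayed under the level for testing and did not pass without the filter (limma adjusted p = 0.156). IFI6, a protein of the mitochondria and endoplasmic reticulum, averaged 4.41 ± 1.14 FPKM in shTRMT6 and 4.58 ± 0.658 FPKM in shControl. IFI35, a partner of NMI, averaged 7.76 ± 0.795 FPKM in shTRMT6 and 7.91 ± 1.01 FPKM in shControl. SAMD9, an antiviral and growth-restraining protein, averaged 1.26 ± 0.255 FPKM in shTRMT6 and 0.983 ± 0.282 FPKM in shControl (SD, n = 3 each). Their log2 fold changes were -0.060, -0.021 and 0.19, with limma adjusted p from 0.337 to 0.911 and overlapping groups.

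Of ISG15 and the enzymes of ubiquitin-like and ADP-ribose tags, 3 of 8 were higher and none was lower. That is 37.5% called, near the 35.4% of all genes tested, but all of it higher, against 19.3% higher and 16.1% lower of all genes. The difference in direction was not tested. The log2 fold changes of all 8 were above 0, except that of USP18 with quantile normalization or without shControl replicate 2. Some that did not pass were small, near the median of 0.024 over all genes tested. ISG15 (ENSG00000187608; chromosome 1, bases 1001138 to 1014540, plus strand) encodes a ubiquitin-like protein that is attached to other proteins and also secreted. It read 115, 106 and 103 FPKM in shTRMT6 and 82.5, 74.1 and 65.0 FPKM in shControl, with no overlap. The mean was 1.46-fold higher (log2 fold change 0.54, SE 0.10, limma adjusted p = 0.0018). HERC6, a HECT-domain ubiquitin ligase whose mouse counterpart attaches ISG15, read 5.17, 5.80 and 5.65 FPKM in shTRMT6 and 2.99, 3.12 and 3.09 FPKM in shControl. It was 1.81-fold higher with groups far apart (log2 fold change 0.68, SE 0.11, limma adjusted p = 0.00077). UBE2L6, the conjugating enzyme for ISG15, read 51.5, 51.0 and 45.6 FPKM in shTRMT6 and 50.6, 46.0 and 43.8 FPKM in shControl. It did not pass (log2 fold change 0.076, SE 0.098, limma adjusted p = 0.577), except with the replicate block and the GC correction together (adjusted p = 0.017).

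USP18, which removes ISG15 and damps the type I interferon receptor, read 6.76, 7.23 and 6.19 FPKM in shTRMT6 and 6.65, 5.86 and 6.91 FPKM in shControl. Its groups overlapped (log2 fold change 0.049, SE 0.12, limma adjusted p = 0.773), and 18.3% of its windows also occur in its near copy USP41. TRIM25, a ubiquitin ligase that acts with RIG-I, read 22.1, 18.4 and 17.2 FPKM in shTRMT6 and 17.4, 17.6 and 17.5 FPKM in shControl (limma adjusted p = 0.413). One knockdown library stood above the rest and another lay below all controls.

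PARP9 and DTX3L, partners in a complex that joins ADP-ribose and ubiquitin transfer, are transcribed away from each other on chromosome 3, and their annotated genes overlap by 340 bases (122564238 to 122564577). The same ISRE match lies in the promoter windows of both: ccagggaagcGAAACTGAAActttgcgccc (chr3:122564322-122564351, GRCh38.p14, plus strand, the core in capitals). PARP9 read 5.26, 5.71 and 5.02 FPKM in shTRMT6 and 3.37, 4.27 and 3.21 FPKM in shControl, and the groups did not overlap. It was 1.47-fold higher (log2 fold change 0.46, SE 0.13, limma adjusted p = 0.013), a call that was lost when shControl replicate 3 (adjusted p = 0.060) or shTRMT6 replicate 2 (0.055) was left out. DTX3L read 4.65, 4.55 and 4.27 FPKM in shTRMT6 and 3.59, 4.22 and 3.82 FPKM in shControl. The groups were just apart and the difference did not pass (log2 fold change 0.17, SE 0.12, limma adjusted p = 0.264; 0.039 in log2 with the GC correction). Whether PARP9 and DTX3L differ from each other in their change was not tested, and without a stated strand setting fragments from the overlap cannot be told apart. PARP14, a mono-ADP-ribosyltransferase of the same region, read 4.81, 5.36 and 4.54 FPKM in shTRMT6 and 3.16, 4.40 and 3.93 FPKM in shControl, and did not pass (log2 fold change 0.30, SE 0.13, limma adjusted p = 0.093; 0.15 in log2 with the GC correction).

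Interferon itself was at or near 0. Of the 10 interferon genes listed, 7 were at 0 in all 6 libraries. IFNB1, chosen after its values were seen, read 0.12, 0.13 and 0.12 FPKM in shTRMT6 and 0, 0 and 0.04 FPKM in shControl. By the depth estimate this is about 2.0 to 2.2 fragments per knockdown library and at most 0.97 in a control library, so no fold change is given. It lay under the level for testing; without a filter on low values it passed (difference 0.15 on the log2(FPKM + 1) scale, SE 0.024, limma adjusted p = 0.0104), on these few fragments. Of the 6 receptor chains, none rose and 2 fell. That is 33.3% called, near the 35.4% of all genes, but all of it lower, against 16.1% lower and 19.3% higher of all genes. IL10RB, the shared chain of the receptors for type III interferon and interleukin 10, read 23.3, 24.8 and 27.2 FPKM in shTRMT6 and 34.2, 33.6 and 39.5 FPKM in shControl. It was 1.42-fold lower with no overlap (log2 fold change -0.49, SE 0.10, limma adjusted p = 0.0032). IFNLR1, the specific chain of the type III receptor, read 3.88, 3.10 and 4.63 FPKM in shTRMT6 and 5.13, 6.09 and 6.47 FPKM in shControl. It was 1.52-fold lower (log2 fold change -0.51, SE 0.14, limma adjusted p = 0.013), a call that was lost with all genes above 0 tested (adjusted p = 0.058) and when shControl replicate 3 (0.0503) or shTRMT6 replicate 2 (0.067) was left out. The type I chains, chosen after their values were seen, did not pass: IFNAR1 averaged 18.4 ± 1.72 FPKM in shTRMT6 and 15.1 ± 3.97 FPKM in shControl, and IFNAR2 averaged 18.5 ± 1.12 FPKM in shTRMT6 and 20.9 ± 3.66 FPKM in shControl (SD, n = 3 each; limma adjusted p = 0.167 and 0.362).

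The signalling genes between receptor and panel also moved both ways, with 2 of 11 tested higher and 1 lower. That is 18.2% and 9.09% of those tested, against 19.3% and 16.1% of all genes. With the GC correction 5 were higher and 1 lower, and by groups that did not overlap 7 were higher and 1 lower (72.7% in either direction, against 48.3% of all genes). TYK2, a kinase of the type I and type III receptors, read 12.9, 12.8 and 14.8 FPKM in shTRMT6 and 24.1, 24.3 and 24.4 FPKM in shControl. It was 1.80-fold lower, with narrow spread in both groups (log2 fold change -0.80, SE 0.10, limma adjusted p = 0.00014). The phosphatases PTPN11 and PTPN2 were 1.47-fold and 1.44-fold higher (limma adjusted p = 0.012 and 0.0085), and the PTPN11 call was lost with all genes above 0 tested (adjusted p = 0.073). The log2 fold change of PTPN2 was 0.25 with the GC correction, in place of 0.48, and still passed.

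Of 15 other sensors and adaptors tested, 6 were higher and 1 was lower, or 46.7% called in either direction, against 35.4% of all genes. RIGI, the sensor of short and 5′-triphosphate RNA, read 2.00, 2.65 and 1.47 FPKM in shTRMT6 and 0.95, 1.13 and 0.85 FPKM in shControl. It was 2.09-fold higher with groups apart (log2 fold change 0.61, SE 0.15, limma adjusted p = 0.0091). On the log2 scale this was 0.39 with the GC correction and 0.96 with a pseudocount of 0.1. SAMHD1, which degrades deoxynucleotides, read 14.3, 14.6 and 11.5 FPKM in shTRMT6 and 7.31, 9.36 and 8.43 FPKM in shControl. It was 1.61-fold higher (log2 fold change 0.63, SE 0.13, limma adjusted p = 0.0023). TLR3, the endosomal receptor for double-stranded RNA, was 1.95-fold higher (limma adjusted p = 0.013), which ended with the GC correction (log2 fold change 0.32 in place of 0.59, adjusted p = 0.127), with that and the block (0.051) and without shTRMT6 replicate 3 (0.059). TBK1, the kinase that activates IRF3, was 1.44-fold higher (limma adjusted p = 0.016), which ended with the GC correction (log2 fold change 0.23 in place of 0.46, adjusted p = 0.0998), with all genes above 0 tested (0.061), and when shTRMT6 replicate 1 (0.055) or 2 (0.083) was left out. STING1, the adaptor of cGAS, chosen after its values were seen, was listed at 0 in the 3 shTRMT6 libraries and at 0, 0 and 0.05 FPKM in shControl.

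**Figure D4:**
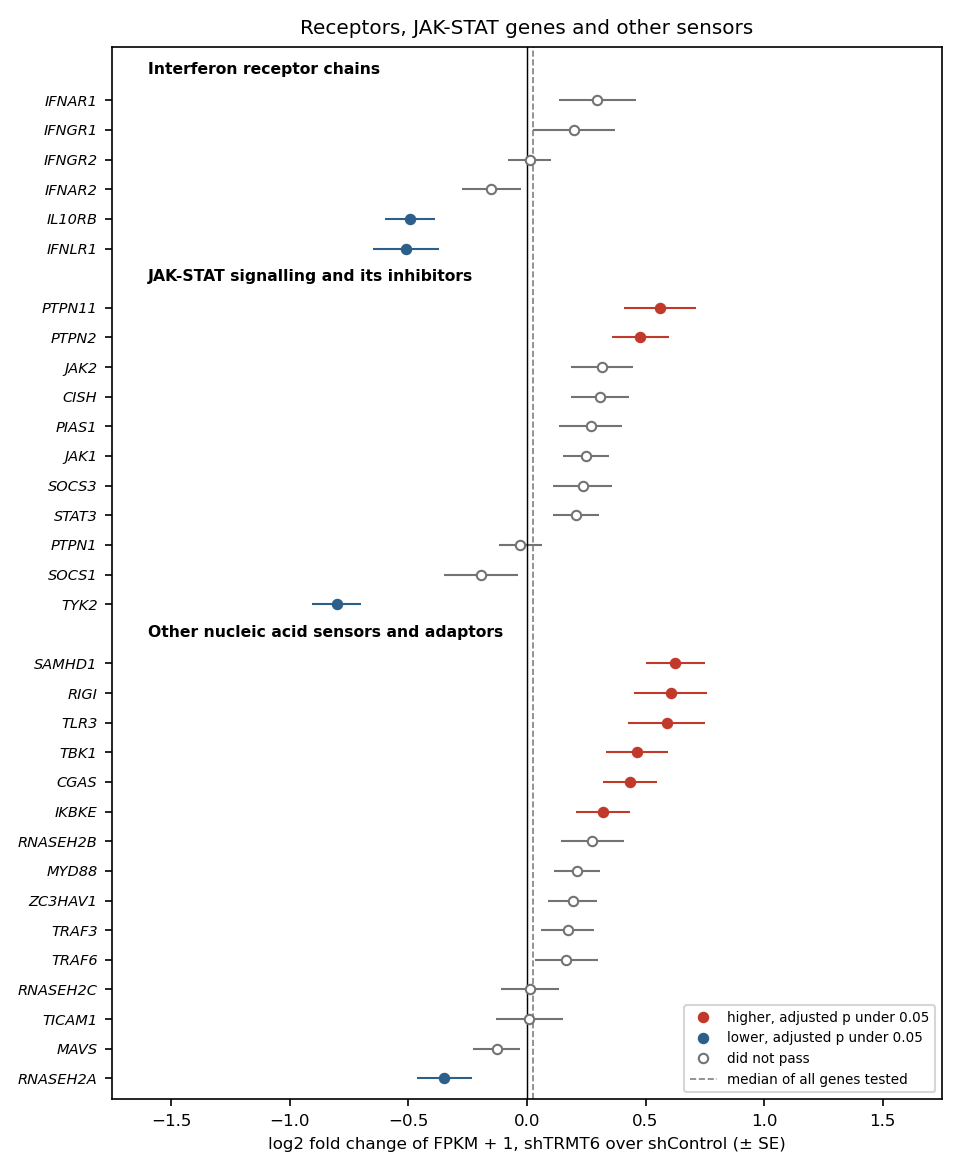
Log2 fold change of FPKM + 1 (shTRMT6 over shControl) with its standard error for the tested interferon receptor chains, JAK-STAT genes and other nucleic acid sensors and adaptors. Filled points passed an adjusted p of 0.05 and the dashed line is the median of all genes tested (0.024). PTPN11 (0.56) and TYK2 (-0.80) lie at opposite ends of the JAK-STAT genes plotted.

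Interferon-stimulated genes outside the panel also moved both ways. Of 47 listed, 25 were tested, 6 were higher and 5 lower, with a median log2 fold change of 0.058. These are 24.0% and 20.0% of those tested, near the 19.3% and 16.1% of all genes. Among the falls, the calls of IFI30, PARP10 and TRIM14 were lost in 8, 6 and 4 of the 17 alternatives. The falls of CMTR1 and LGALS3BP, and all rises, stayed called in every alternative run for them. IFI30, PARP10, TRIM14 and CMTR1 were chosen after their values were seen. SP100 and SP110, nuclear body proteins, read 39.3, 41.3 and 32.2 FPKM and 6.22, 5.35 and 5.75 FPKM in shTRMT6, against 14.6, 18.2 and 15.6 FPKM and 2.44, 2.95 and 2.71 FPKM in shControl. They were 2.33-fold and 2.14-fold higher (limma adjusted p = 3.3e-05 and 0.00024), and neither pair of groups overlapped. NMI, a partner of STAT proteins and of IFI35, was 1.70-fold higher (log2 fold change 0.67, SE 0.12, limma adjusted p = 0.0010; 0.445 in log2 with the GC correction). LGALS3BP, a secreted glycoprotein, read 2.89, 3.05 and 4.89 FPKM in shTRMT6 and 10.2, 10.3 and 10.1 FPKM in shControl. It was 2.82-fold lower (log2 fold change -1.305, SE 0.15, limma adjusted p = 7.2e-05). A further 22 genes of this list stayed under the level for testing, 3 of them at 0 in all libraries.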

How the data were processed

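Per the labels' protocols, RNA was extracted with TRIzol and mRNA libraries were made with a NEBNext Ultra kit. The deposited values are FPKM, per the file headers. Tools listed in the submitters' processing notes, with no roles, are RSEM, StringTie 1.3.1, HISAT2, Bowtie2 2.2.8 and fastp 0.18.0; build, annotation and strand setting are not given in the sources used here. Groups came from the titles; columns were matched by replicate number, with the prefix for negative control taken as shControl. The labels do not call the replicates separate cultures, so the p-values may measure technical spread alone.

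The 10592 genes averaging 1 FPKM or more were tested with limma 3.58.1 (R 4.3.3) on log2(FPKM + 1), trended prior, two-sided, Benjamini-Hochberg threshold 0.05; this scale understates changes of low genes, and fold values are ratios of mean FPKM. The fit was tested on simulated data with the same spread for every gene and no GC trend or replicate pairing. That test therefore does not cover these features of the data. Depth came from the steps between low FPKM values of single-transcript genes of at most 1000 bases. The match to even steps was loose, from 0.158 (shControl replicate 2) to 0.49 (shTRMT6 replicate 1), where 1 is an exact match. Fragment counts use the length of the longest transcript and are approximate. Symbols came from a gene-name table (20257 identifiers) and GENCODE release 29 (30 more); RIGI was found by its RefSeq synonym. The members, lists and alternatives were chosen with earlier results of these data known. 1 further gene of the JAK-STAT list is not reported here and is not in its counts. Named were TRMT6, all members, and from every other list up to 4 called genes with the largest absolute change, or the 2 most abundant where none passed, and the most abundant marker per cell type. Genes whose values are given beyond this rule were chosen after those values were seen.

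Deviations from group means correlated at 0.206, 0.364 and 0.17 between libraries of the same replicate number and at -0.288 to 0.0936 between others. The numbers may therefore pair the libraries, and a replicate block was an alternative. The main fit has no block, so its p-values ignore any such pairing. Over all genes, 2702 were called higher and 2252 lower with the block, against 2042 and 1704 in the main fit. What a replicate number stands for is not stated. The GC correction subtracted from each library a lowess curve of its deviations against transcript GC content.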

Additional observations from a re-analysis of the deposited data

How the results depend on the processing

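Over 17 alternatives (pseudocounts, filters, scaling, variance priors, GC correction, replicate block, each library left out), 13 of the 29 tested members kept direction and side of the threshold in every alternative run for them. For 5 of the 13 (IFIH1, IRF9, HERC6, DTX3L and PARP14) these were 16, since they average under 5 FPKM and the stricter filter removes them. Members called higher numbered 7 to 12 and members called lower 1 to 5, with 5 under the replicate block with the GC correction and 1 to 3 with a library left out (1 without shControl replicate 3 or without shTRMT6 replicate 2, when IFITM1 alone passed). Their median log2 fold change of 0.19 was 0.25 with a pseudocount of 0.1 or 0.5, 0.13 with quantile normalization, and 0.13 to 0.22 with a library left out. The members' median was 0.15 with the GC correction, against 0.0003 over all genes tested. In that fit 34.5% of tested members were higher and 10.3% lower, against 19.5% and 19.7% of all genes tested. The difference between these shares was not tested. Genes called over the whole table were 1295 to 2027 higher and 1112 to 1731 lower with a library left out (lowest without shTRMT6 replicate 2; 1305 higher without shTRMT6 replicate 1), and 2674 lower under the block with the GC correction. The replicate block alone added calls for IRF1, IFIT5 and IFITM2 and changed no other member's call. Signs turned only for members that never passed. With the GC correction, alone or with the block, the log2 fold changes were 0.057 for IRF3, 0.098 for IRF7, 0.044 for IFI6, 0.11 for IFI35 and -0.11 for SAMD9. USP18 read -0.012 with quantile normalization. Over the libraries left out in turn, log2 fold changes ran from -0.16 to 0.0038 for IRF3, -0.21 to 0.022 for IRF7, -0.18 to 0.12 for IFI6, -0.094 to 0.066 for IFI35 and -0.012 to 0.099 for USP18. The cause was not tested. Depth limits the low genes: by the estimate, 1 fragment of IFNB1 was worth 0.041 to 0.063 FPKM, and IFI44 rested on at most 14 fragments in any library.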
